A study of Mus musculus with 10 samples.

Results

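Ectodysplasin signalling was followed through 6 genes, out of 32285 genes counted in cells of the developing mouse incisor. They were the ligand Eda, its receptor Edar, the adaptors Edaradd and Traf6, the inhibitor Nfkbia, and Tnfrsf19, which encodes a receptor related to Edar. The genes were chosen by name for their place in the pathway, by a rule that uses no measured value, although earlier results of these data were known when it was set. Cells came from wild-type NMRI embryos, from the whole mandible at E11.5 or the buds of the lower incisor at the 2 later stages, E14.5 and E16.5, and were sequenced as droplet-based single-cell 3' libraries. The labels list 4, 4 and 2 samples for the 3 stages, but each stage is 1 count matrix whose barcodes are not tied to a sample. Each stage was therefore treated as 1 sample, no test between groups was possible, and stage, dissection and sequencing cannot be told apart.

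Ectodysplasin (Eda) is a ligand of the tumour necrosis factor family that is best known from ectodermal organs such as teeth, hair and sweat glands. On binding, its receptor Edar recruits the death-domain adaptor Edaradd, which passes the signal through Traf6 to the kinases that release the transcription factor NF-kB from its inhibitors. Loss of the ligand, the receptor or the adaptor in mice or in patients gives hypohidrotic ectodermal dysplasia with missing or misshapen teeth, and in the tooth germ the receptor is known from the epithelium, including the enamel knot.

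After filtering for at least 700 genes and at most 20% mitochondrial unique molecular identifiers (UMIs, each counting 1 captured transcript), 6573, 6091 and 4511 cells remained from the youngest to the oldest stage, and a cell held a median of 5664, 3471 and 6260 UMIs. Lineages were called per cell from marker UMIs. At E14.5 there were 767 epithelial and 4468 mesenchymal cells, and at E16.5 1410 and 2473. The E11.5 mandibles gave 5551 mesenchymal cells but only 11 epithelial ones, so no comparison with E11.5 epithelium was made. In these 11 cells, Eda and Edar had 0 UMIs, Edaradd 2, Tnfrsf19 12, Traf6 5 and Nfkbia 8. The 13 epithelial markers summed to 2663 UMIs per 1000000 (CPM) in epithelium and 84.5 in mesenchyme at E14.5. At E16.5 these sums were 3386 and 170 CPM. In epithelium of the 2 stages, the 10 mesenchymal markers summed to 172 and 263 CPM. The 9 neuron markers summed there to 267 and 488 CPM, and the 12 immune markers to 4.80 and 3.66 CPM. Between stages, 30 barcode sequences of kept cells were shared, and 10.5%, 6.73% and 8.89% of cells were left uncalled.

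Levels are pooled CPM with exact 95% intervals (Poisson for a level, Clopper-Pearson for a share of cells, conditional binomial for a ratio), which cover counting error only and not the spread between embryos. Values are compared within a gene, across groups of cells, and not between genes. Free RNA that enters droplets was gauged from erythroid and endothelial cells. Erythroid barcodes carried 368 CPM of epithelial markers at E14.5 and 781 at E16.5, against 46.1 and 75.3 CPM in endothelial cells, so both are given. Of mesenchymal markers, erythroid barcodes carried 1492 and 1802 CPM, endothelial cells 122 and 54.6 CPM and mesenchyme itself 3800 and 4921 CPM. A barcode was called erythroid by its share of erythroid marker UMIs, whatever its other markers. A mesenchymal level within the erythroid interval therefore does not show that the level is background.

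The ligand gene Eda (ENSMUSG00000059327, chromosome X, 99975606 to 100400762, plus strand, GRCm38) was found at low levels in both tooth tissues. In epithelium it reached 4.64 CPM at E14.5 (95% interval 3.08 to 6.70, 28 UMIs), while E16.5 epithelium had 8.12 CPM (6.79 to 9.64, 131 UMIs). Mesenchyme had 1.71 CPM (1.34 to 2.15, 73 UMIs), 2.51 CPM (1.83 to 3.38, 44 UMIs) and 4.77 CPM (3.82 to 5.88, 87 UMIs) in the order of the stages. E16.5 epithelium was highest and its interval lay apart from that of E16.5 mesenchyme, whereas E16.5 mesenchyme, E14.5 epithelium, E14.5 mesenchyme and E11.5 mesenchyme, in this order, each overlapped with the next. Endothelial cells had 0 Eda UMIs at all 3 stages, where 3 UMIs would be 4.05, 4.32 and 3.09 CPM, and erythroid cells had 0, 2 and 0 UMIs. The mesenchymal level was above these limits only at E16.5, and at E11.5 and E14.5 it was below what so few control cells could show as background. Of the 75 Eda UMIs in the mandible at E11.5, 73 were in mesenchymal cells, which held 89.7% of all UMIs.

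The receptor gene Edar (ENSMUSG00000003227, chromosome 10, 58600789 to 58675654, minus strand) was very sparse, and most of its UMIs at E14.5 and E16.5 were in epithelium. At E14.5, 17 of the 19 Edar UMIs were in epithelial cells (89.5%), which made up 12.6% of cells and 21.8% of all UMIs. At E16.5, 23 of 32 were (71.9%, interval 53.3 to 86.3), against 31.3% of cells and 40.3% of UMIs, while 5 were in mesenchymal and 4 in uncalled cells. E14.5 epithelium had 2.81 CPM (1.64 to 4.51) and E16.5 epithelium 1.43 CPM (0.904 to 2.14), with overlapping intervals. In mesenchyme there were 0, 1 and 5 UMIs at the 3 stages, or 0, 0.0571 and 0.274 CPM. At E14.5 and E16.5, 3 UMIs in endothelial cells would be 4.32 and 3.09 CPM, above the mesenchymal and also the epithelial levels. So few control cells cannot set either tissue apart from background. Erythroid cells at E14.5 had 1 UMI, or 1.12 CPM (0.0284 to 6.24), which overlapped with epithelium. The mandible at E11.5 held a single Edar UMI, in an uncalled cell. No epithelial cell had more than 2 Edar UMIs, and 2.22% of them had any at the earlier and 1.42% at the later of these stages. With every cell thinned to 2000 UMIs the shares were 0.724% and 0.153% in epithelium and 0% and 0.164% in mesenchyme, from 5 and 2 epithelial and 0 and 4 mesenchymal cells. The higher share in epithelium was thus not detectable at E16.5 after thinning, and a cell without an Edar UMI cannot be called negative at this depth.

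Tnfrsf19 (ENSMUSG00000060548, chromosome 14, 60963875 to 61046490, minus strand), which encodes Troy, a receptor related to Edar, was highest in epithelium at E16.5. Its level there was 98.8 CPM (94.0 to 104, 1594 UMIs), against 53.6 CPM (48.0 to 59.8, 324 UMIs) in E14.5 epithelium. At least 1 UMI was found in 41.8% of epithelial cells of the later stage and 24.0% of the earlier one, or 15.2% and 11.3% after thinning, and 1 cell held 33. Mesenchyme had 10.4 CPM (9.45 to 11.4), 7.37 CPM (6.16 to 8.76) and 19.3 CPM (17.4 to 21.5), from 443, 129 and 353 UMIs. Endothelial cells had 4.05, 1.44 and 3.09 CPM and erythroid cells 0, 8.96 and 24.5 CPM, so the mesenchymal interval lay above the endothelial one only at E16.5 and above the erythroid one only at E11.5. Muscle cells of the mandible had 15.4 CPM from 7 UMIs, which overlapped with mesenchyme.

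Edaradd (ENSMUSG00000095105, chromosome 13, 12472632 to 12520438, minus strand), the adaptor that binds the death domain of Edar, was highest in epithelium among lineages of at least 50 cells. It stood at 26.5 CPM in E14.5 epithelium (22.5 to 30.9, 160 UMIs in 14.6% of cells) and at 36.4 CPM in E16.5 epithelium (33.5 to 39.5, 587 UMIs in 25.0% of cells). Mesenchyme had 4.25, 4.06 and 2.36 CPM (181, 71 and 43 UMIs) from E11.5 to E16.5. Erythroid cells had 0, 6.72 and 6.81 CPM and endothelial cells 0, 0 and 2.06 CPM, so the mesenchymal levels at E14.5 and E16.5 lay within the erythroid intervals (2.47 to 14.6 and 2.21 to 15.9), which rest on 6 and 5 UMIs. The part of free RNA in them was not tested. Mesenchyme at E11.5, with 7.51 CPM of epithelial markers, had about the same Edaradd level as at E14.5, with 84.5 CPM of them. At E11.5, 3 UMIs would be 3.97 CPM in erythroid and 4.05 CPM in endothelial cells, about the level in mesenchyme. Glial cells of the mandible, 14 in all, held 6 Edaradd UMIs (39.8 CPM, 14.6 to 86.7), an interval above that of mesenchyme and overlapping with those of E14.5 and E16.5 epithelium.

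Traf6 (ENSMUSG00000027164, chromosome 2, 101678429 to 101701669, plus strand), a ubiquitin ligase used by many receptors besides Edar, was found in every lineage of at least 50 cells. It was at 10.6 CPM (8.16 to 13.5) and 9.30 CPM (7.87 to 10.9) in E14.5 and E16.5 epithelium, and at 8.37, 4.69 and 5.86 CPM in mesenchyme. Endothelial cells had 9.45, 2.88 and 8.25 CPM, erythroid cells 7.94, 1.12 and 4.08 CPM, and immune cells at E14.5 13.3 CPM (6.89 to 23.3). The interval in immune cells at E14.5 overlapped with that of epithelium and lay above that of mesenchyme (3.73 to 5.82), and the other small lineages overlapped with mesenchyme of their stage.

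Nfkbia (ENSMUSG00000021025, chromosome 12, 55489410 to 55492647, minus strand) encodes the inhibitor IkB-alpha, which holds NF-kB in the cytoplasm and is itself a known transcriptional target of NF-kB. Its promoter is shown because of that feedback. The RefSeq window of 250 bases before to 50 bases after the annotated start lies at chr12:55492598-55492897 on the minus strand of GRCm38.p6, with matches to GGANTTTCC on either strand in capitals.
Nfkbia promoter: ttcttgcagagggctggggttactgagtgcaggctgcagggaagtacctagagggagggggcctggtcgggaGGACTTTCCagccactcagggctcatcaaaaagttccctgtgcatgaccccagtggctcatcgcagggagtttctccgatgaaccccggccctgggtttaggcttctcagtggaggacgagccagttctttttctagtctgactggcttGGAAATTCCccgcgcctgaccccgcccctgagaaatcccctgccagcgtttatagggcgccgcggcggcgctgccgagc
The 2 matches begin 178 and 29 bases before the start, the nearer one on the opposite strand, where it overlaps the only match to the NF-kB consensus in the window. This motif was chosen after the sequence had been read. It was present in 412 of 32851 promoter windows of 300 bases (1.25%), of which 1 held 2 or more, and the NF-kB consensus was in 4.51%. All 6 members matched a RefSeq entry, Tnfrsf19 with 2 windows, and the windows of the other 5 members held neither motif, which says only that these letters are not in those windows.

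In the cells, Nfkbia was highest outside the tooth tissues. The 126 immune cells at E14.5 had 841 CPM (782 to 903), and these 2.07% of cells held 756 of 2504 Nfkbia UMIs (30.2%). The 26 immune cells at E16.5 had 836 CPM (734 to 949) and the 55 at E11.5 118 CPM (88.6 to 154). Endothelial cells came next among lineages of at least 50 cells, with 74.2, 124 and 247 CPM from E11.5 to E16.5. E14.5 epithelium had 115 CPM (107 to 124, 696 UMIs) and E16.5 epithelium 85.3 CPM (80.9 to 89.9, 1376 UMIs), and the former overlapped with that in endothelium of the same stage. Mesenchyme had 23.6, 45.3 and 77.3 CPM (1005, 792 and 1411 UMIs), and erythroid cells 3.97, 52.6 and 34.0 CPM, so that at E14.5 the mesenchymal level was within the erythroid interval of 38.7 to 70 CPM. The plot of levels by lineage sets these values side by side.

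**Figure D1:**
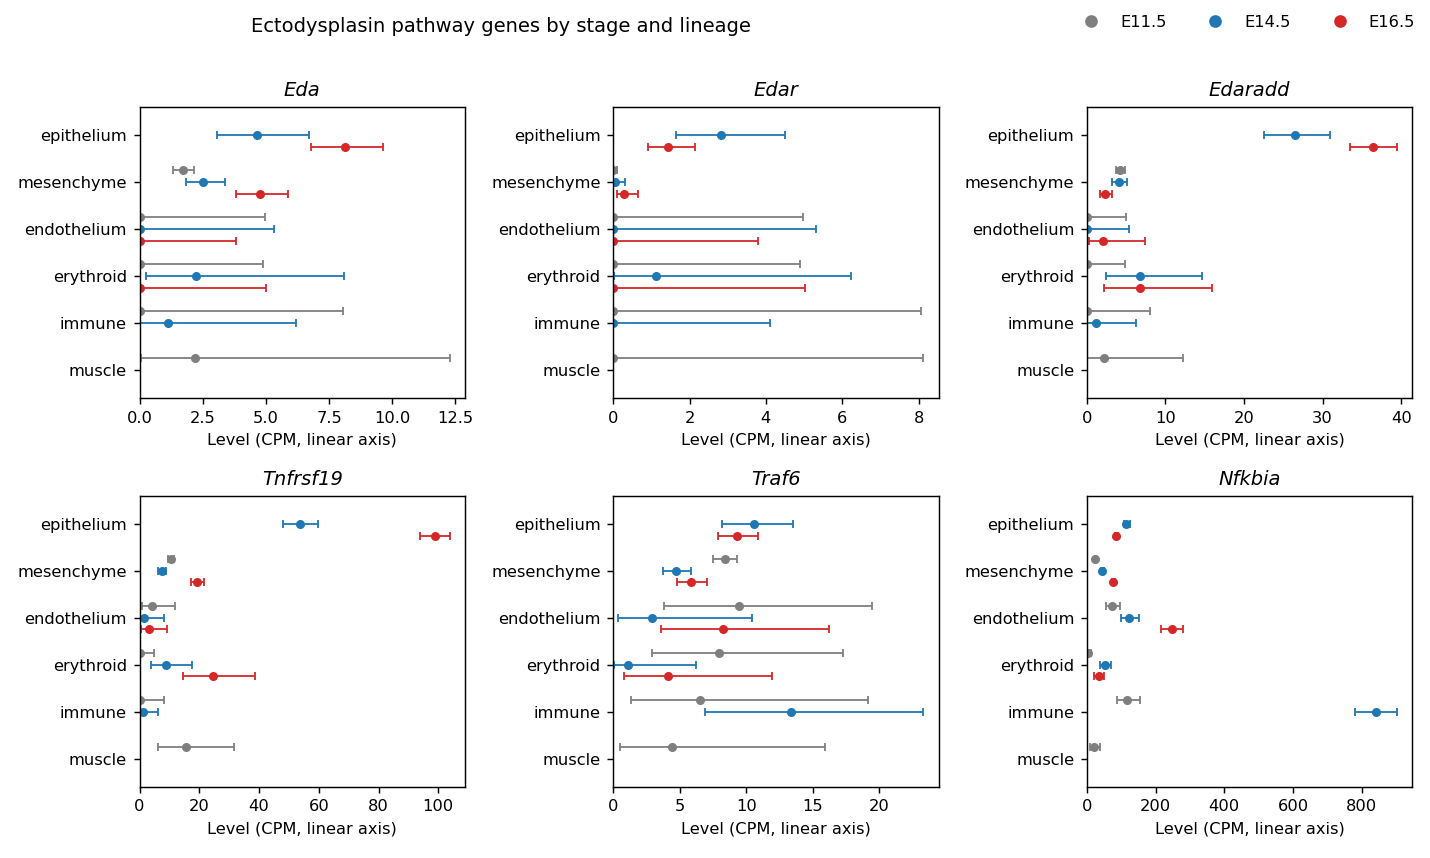
Level of each gene (CPM, linear axis, one panel a gene) in every lineage and stage with at least 50 cells. Points are pooled CPM and bars exact 95% Poisson intervals. Tnfrsf19 and Edaradd sit highest in epithelium, at 98.8 and 36.4 CPM at E16.5, whereas Nfkbia reaches 841 CPM in immune cells at E14.5.

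Epithelium and mesenchyme of the same stage were then compared. A gene was counted as higher or lower where its CPM differed by at least 2-fold with at least 20 UMIs in the higher group. At E14.5, 4 of the 5 members with enough UMIs were higher in epithelium and none was lower, against 10.3% of 12206 genes higher and 14.7% lower. Tnfrsf19 had a log2 ratio of 2.86 (2.56 to 3.17), Edaradd 2.71 (2.29 to 3.13), Nfkbia 1.35 (1.20 to 1.5) and Traf6 1.18 (0.68 to 1.67). These 4 genes include the adaptor that binds Edar and the inhibitor of NF-kB. Eda had 0.88 (0.14 to 1.60), short of 2-fold, and Edar had 17 UMIs against 1, a ratio of 49.3 (7.72 to 2058) that was too sparse to be counted. The members' median was 1.35, against -0.03 over all genes with enough UMIs.

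At E16.5, 3 of 6 members were higher in epithelium and none was lower, where 11.8% and 13.8% of 13509 genes were. Edaradd had the largest log2 ratio, 3.95 (3.50 to 4.43), followed by Edar with 2.38 (0.95 to 4.13) and Tnfrsf19 with 2.35 (2.19 to 2.52). Eda was at 0.77 (0.37 to 1.18), Traf6 at 0.67 (0.30 to 1.04) and Nfkbia at 0.14 (0.03 to 0.25). Nfkbia was thus close to even between the tissues at E16.5, and Edar and Nfkbia turned to -0.11 and -0.051 when cells were thinned to 2000 UMIs. The shares of UMIs show the same layout. Epithelium held 79.3% of Edaradd UMIs, 70.8% of Tnfrsf19, 54.6% of Eda, 51.4% of Traf6 and 37.7% of Nfkbia at E16.5, against 40.3% of all UMIs.

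**Figure D2:**
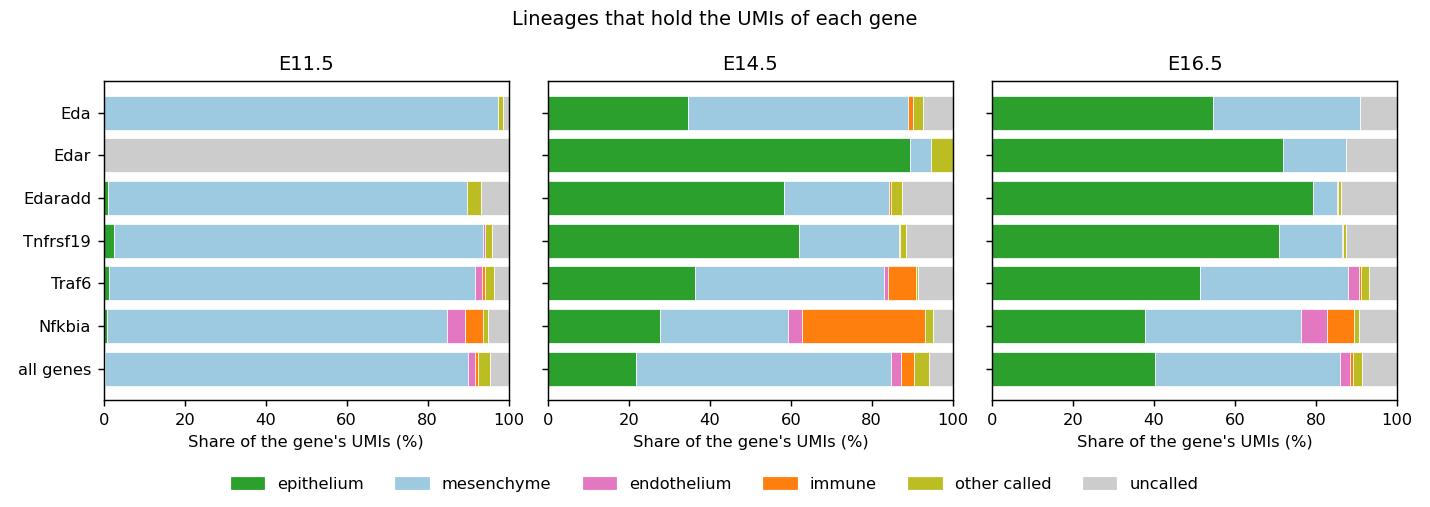
Share of each gene's UMIs (%, horizontal axis) held by each lineage at each stage, with all genes as the bottom bar. The epithelial share at E16.5 runs from 37.7% for Nfkbia to 79.3% for Edaradd, against 40.3% for all genes. The Edar bar at E11.5 is a single UMI.

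Each tissue was then compared between stages. In epithelium from E14.5 to E16.5, 0 of 5 members passed 2-fold, where 10.5% of 12136 genes were higher and 2.26% lower. Tnfrsf19 had a log2 ratio of 0.88 (0.71 to 1.06), Eda 0.81 (0.21 to 1.45), Edaradd 0.46 (0.20 to 0.72), Traf6 -0.19 (-0.62 to 0.26), Nfkbia -0.43 (-0.57 to -0.30) and Edar -0.98 (-1.95 to 0.01). The median of all genes was itself at 0.21, so the ratio of Edaradd exceeded it little.

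In mesenchyme from E11.5 to E14.5, again 0 of 5 members passed 2-fold, with 11.7% of 13524 genes higher and 12.7% lower and their median at -0.22. Nfkbia had 0.94 (0.81 to 1.08), Eda 0.55 (-0.02 to 1.11), Edaradd -0.07, Tnfrsf19 -0.50 (-0.79 to -0.21) and Traf6 -0.84 (-1.20 to -0.49). From E14.5 to E16.5, 1 of 5 members passed, Tnfrsf19 with 1.39 (1.10 to 1.69), where 9.19% of 13018 genes were higher and 2.68% lower and their median was 0.17. Epithelial markers in mesenchymal cells also differed between the stages, with 7.51, 84.5 and 170 CPM from E11.5 to E16.5, and the part of free epithelial RNA in the Tnfrsf19 ratio was not tested. Eda had 0.92 (0.38 to 1.48), Nfkbia 0.77 (0.65 to 0.90), Traf6 0.32, and Edaradd -0.78 (-1.37 to -0.22), at levels within the erythroid intervals.

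**Figure D3:**
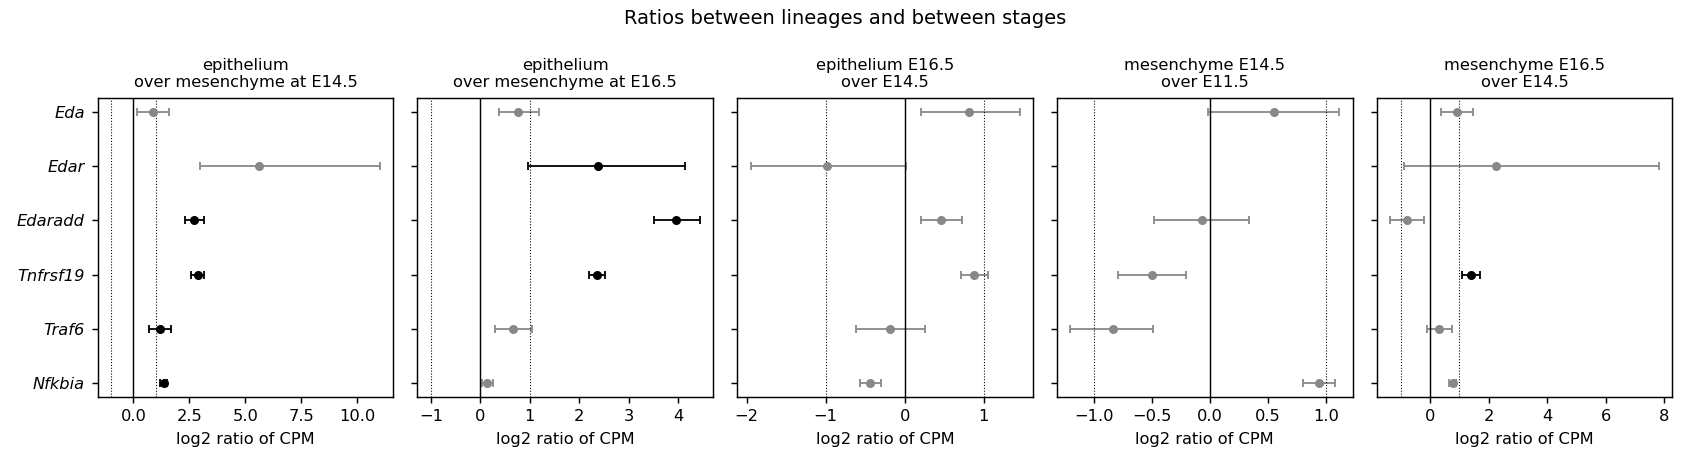
Log2 ratio of CPM (horizontal axis, a scale of its own in each panel) for the 6 genes in 5 comparisons, with exact 95% intervals. Black points passed 2-fold with at least 20 UMIs in the higher group, grey points did not, and dotted lines mark 2-fold. Black points number 4 and 3 between the tissues, 0 and 0 in the next panels and 1 in mesenchyme from E14.5 to E16.5.

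The rest of the pathway was described from lists, first between epithelium and mesenchyme at E14.5, where 10.3% of all genes were higher and 14.7% lower. Of the 10 other ligands, receptors and ligand-processing genes, 6 had enough UMIs at E14.5. Ltb, which encodes lymphotoxin beta, was at 27.2 CPM in epithelium and 0.4 in mesenchyme, and Furin, the protease that cleaves Eda from the cell surface, was at 31.1 and 13.3 CPM. The other 4, Ltbr, Tnfrsf1a, Tnfsf11 and Ngfr, were lower in epithelium, with Ngfr, the low-affinity neurotrophin receptor, at 0.662 against 30.9 CPM. Eda2r, the receptor of the other Eda isoform, had 0 to 12 UMIs in any group. Among the 15 adaptors, kinases and NF-kB subunits with enough UMIs, only Traf3 was higher in epithelium (36.8 CPM, log2 ratio 1.34) and only Traf5 lower. Of the 4 inhibitors, Tnip1 was higher.

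Of 14 genes known as targets of Eda signalling in skin appendages, 12 had enough UMIs at E14.5. In epithelium 9 of them were higher and 2 lower, with a median log2 ratio of 4.09. Over all genes 10.3% were higher and 14.7% lower, with a median of -0.03. The list was written with earlier results of these data known. Shh, a secreted signal of the enamel knot and inner dental epithelium, was at 96.7 against 2.17 CPM, and the activin inhibitor Fst at 249 against 23.3 CPM. The chemokine Cxcl10 was at 30.0 against 0.571 CPM, and the Wnt ligand Wnt10a at 26.2 against 0.972 CPM. Bmp4 and Ccn2 were lower, with Bmp4 at 11.3 against 58.5 CPM. At E16.5, 6 of 12 were higher, and Bmp4 and Ccn2 were again lower, where 11.8% of all genes were higher and 13.8% lower. Of the other lists at E16.5, 1 of 7 ligands and receptors (Ltb) was higher and 4 were lower, 1 of 15 adaptors and subunits (Traf3) was higher, and of 6 inhibitors Tnfaip3 was higher and Nfkbie and Birc3 lower. Of the 5 upstream Wnt and activin genes, Wnt6 and Wnt7b were higher in epithelium at E14.5 and Inhba lower, at 11.4 against 354 CPM.

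Within epithelium from E14.5 to E16.5, 5 of 13 such targets were lower and 1 higher, with a median log2 ratio of -0.72, where 2.26% of all genes were lower and 10.5% higher. The Wnt inhibitor Dkk4 had 29 UMIs and then 1, Cxcl10 was at 30.0 and 3.04 CPM, Fst at 249 and 61.1 CPM and the adhesion molecule Madcam1 at 12.4 and 3.6 CPM, and Ccn2 was also lower. Pthlh was the gene that was higher, at 30.6 and 64.4 CPM. Of 4 ligands and receptors, Ltb was lower, at 27.2 and 6.26 CPM, and Ltbr, the receptor for lymphotoxin, higher, at 1.16 and 2.73 CPM. Of 15 adaptors and subunits, the kinase gene Chuk was higher, and none of 4 inhibitors passed. In mesenchyme from E11.5 to E14.5, where 11.7% of all genes were higher and 12.7% lower, 3 of 5 ligands or receptors (Tnfrsf1a, Tnfsf11 and Ngfr) and 3 of 15 adaptors or subunits (Traf5, Rel and Relb) were higher and none lower, and none of 6 inhibitors passed. Of 7 targets, 6 were higher and Ccnd1, a cyclin gene, was lower. Epithelial markers in mesenchymal cells were at 7.51, 84.5 and 170 CPM from E11.5 to E16.5. The part of free epithelial RNA in the mesenchymal target counts was not tested. From E14.5 to E16.5, where 9.19% of all genes were higher and 2.68% lower, 1 of 6 ligands or receptors (Tnfrsf11a), 2 of 6 inhibitors (Nfkbie and Tnfaip3) and 3 of 8 targets (Wnt10a, Pthlh and Ccnd1) were higher and none lower, and of 15 adaptors or subunits 0 were higher and 1, Traf5, was lower.

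Within epithelium, Edar UMIs at E14.5 were mostly in cells with Shh. Epithelial cells were split by whether they held at least 1 Shh UMI, as did 114 of 767 cells (14.9%) at E14.5 and 447 of 1410 (31.7%) at E16.5. By contrast, 0.604% of mesenchymal cells and 0 of 144 endothelial cells had a Shh UMI at E14.5, and 1.42% and 1.77% at E16.5. Of erythroid barcodes, 2.14% (3 of 140) had a Shh UMI at E14.5 and 6.35% (4 of 63) at E16.5. Of immune cells, 0 of 126 had one at E14.5 and 3 of 26 at E16.5. The part of free Shh RNA in the split was not tested. The Shh+ cells at E14.5 had a median of 5364 UMIs and the other epithelial cells 4525, and at E16.5 8818 and 6212. Split genes came from a list of 11 epithelial and 11 mesenchymal genes, and 9 of the epithelial ones gave a split at E14.5, with 52 ratios of which 12 had an interval above 0 and 8 below, and at E16.5 9 gave 54 ratios with 19 above and 10 below.

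At E14.5, 15 of the 17 Edar UMIs were in the 114 Shh+ cells and 2 in the other 653, or 12 CPM (6.70 to 19.7) against 0.418 (0.0506 to 1.51), a log2 ratio of 4.84 (2.74 to 8.01). An Edar UMI was found in 13.2% of Shh+ cells (7.56 to 20.8) and in 0.306% of the others (0.0371 to 1.10). After thinning to 2000 UMIs it was found in 4 of 103 and 1 of 588 cells. The 17 cells with Edar held 1 UMI each and a median of 9038 UMIs in all. All 17 were outside the top 5% of doublet scores, and 15 remained epithelial under a stricter lineage rule, 14 of them Shh+. Of the 17, 16 had Nfkbia, 12 had Tnfrsf19, 5 had Fgf4, 4 had Edaradd, 1 had Sox2, 1 had Eda and none had Krt15. Among all epithelial cells (median 4637 UMIs), 34.7% had Nfkbia, 24.0% Tnfrsf19, 14.6% Edaradd and 3.26% Eda. Among the Shh+ cells these shares were 63.2%, 50.9%, 26.3% and 0.877%. The part of depth and of Shh in the counts among the 17 cells was not tested.

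The other members of the pathway also differed between these cells at E14.5. By the rule of 2-fold and 20 UMIs, 3 members were higher in Shh+ cells and 1 lower, where 3.9% of 8569 genes were higher and 6.28% lower. Nfkbia was at 250 CPM (223 to 279) against 80.0 (72.2 to 88.5), log2 1.64 (1.42 to 1.86), and was found in 63.2% against 29.7% of cells. Tnfrsf19 was at 112 (94.0 to 132) against 38.4 CPM, log2 1.54 (1.21 to 1.86), in 50.9% against 19.3% of cells. Tnfrsf19 and Nfkbia were thus higher in the cells that held most of the Edar UMIs. Edaradd was at 44.7 against 21.7 CPM, log2 1.04 (0.54 to 1.52), but 0.15 with counts thinned to 2000 UMIs per cell and cells split before thinning, and -0.16 with cells split after it, so its direction was not stable. Eda had 1 UMI in Shh+ cells and 27 in the others, 0.798 (0.0202 to 4.45) against 5.64 CPM (3.72 to 8.21). Its log2 ratio was -2.82 (-8.18 to -0.22), the opposite direction from its receptor, but with Shh+ set at 2 or more UMIs the interval reached 0.44. Traf6 was at 12 against 10.2 CPM, with an interval across 0.

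At E16.5, Edar was not clearly split by Shh. It had 13 UMIs in Shh+ cells and 10 in the others, 2.09 against 1.01 CPM, a log2 ratio of 1.05 (-0.26 to 2.40) that is not distinct from 0, and the difference from E14.5 was not tested. Eda was again lower in Shh+ cells, with 15 UMIs against 116, 2.41 (1.35 to 3.97) against 11.7 CPM (9.68 to 14.1), log2 -2.28 (-3.16 to -1.50). Edaradd was higher, at 56.8 (51.1 to 63.1) against 23.5 CPM (20.6 to 26.8), log2 1.27 (1.03 to 1.52). These were the 2 members past 2-fold, where 3.1% of 11571 genes were higher and 4.47% lower. Tnfrsf19 was at 113 against 90.0 CPM (log2 0.33, 0.18 to 0.47), Nfkbia at 102 against 74.7 CPM (0.45, 0.30 to 0.61) and Traf6 at 10.1 against 8.79 CPM (0.20, -0.29 to 0.69).

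**Figure D4:**
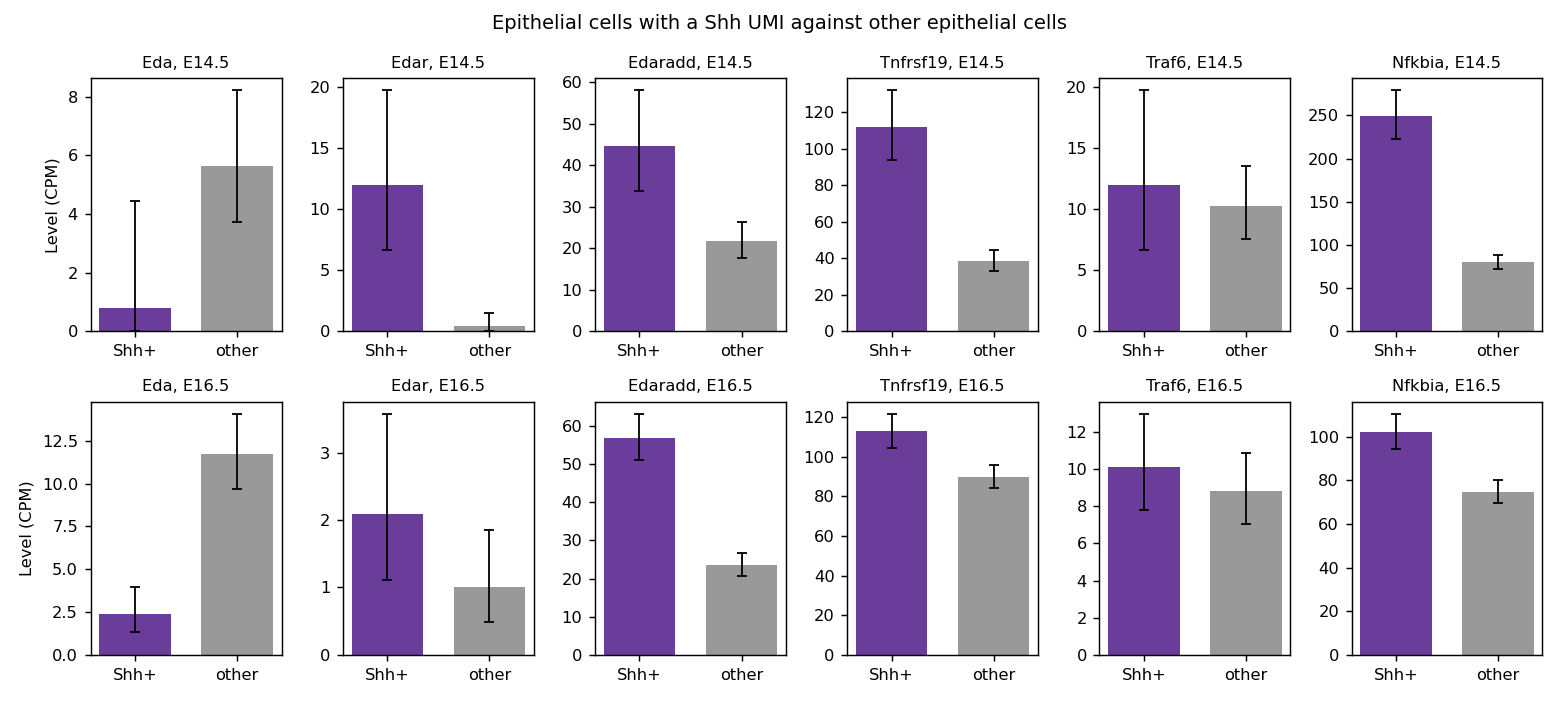
Level (CPM, linear axis from 0) of each gene in epithelial cells with at least 1 Shh UMI (Shh+, purple) and in other epithelial cells (grey), at E14.5 (top) and E16.5 (bottom), with exact 95% Poisson intervals. Eda is lower in Shh+ cells at both stages (0.798 against 5.64 CPM and 2.41 against 11.7 CPM), and Edar is at 12 against 0.418 CPM at E14.5.

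The listed targets and subunits in the same Shh+ cells at E14.5 were as follows, with genes past 2-fold named after their values had been seen. Leaving out Shh itself, 8 of 10 targets with enough UMIs were higher and 2 lower, with a median log2 ratio of 2.23. Over 8569 genes, 3.9% were higher and 6.28% lower, with a median of -0.17. Dkk4 had 27 UMIs against 2, Wnt10a was at 98.1 against 7.31 CPM, Madcam1 at 37.5 against 5.85 CPM and Bmp4 at 46.3 against 2.09 CPM. The enamel knot gene Fgf4, which is from the list of epithelial split genes and not of targets, was at 64.6 against 1.04 CPM. Of that list without Shh, 8 genes had enough UMIs. Of these 3 were higher and 2 lower, with a median log2 ratio of -0.31. The 2 lower targets were the Wnt and Bmp inhibitor Sostdc1, at 120 against 497 CPM, and Pthlh. Ltb was at 92.6 against 10.0 CPM, and of 14 adaptors, kinases and subunits the NF-kB subunits Nfkb2 (19.9 against 3.97 CPM), Relb (22.3 against 6.48 CPM) and Rel (35.1 against 16.1 CPM) were higher and Traf2 and Traf5 lower. Of the 5 upstream Wnt and activin genes, 2 were higher and 1 lower. The 2 higher ones, Lef1 and Axin2, read-outs of Wnt signalling, were at 157 against 27.8 CPM and 68.6 against 15.5 CPM. In Shh+ cells at E16.5, 4 of 9 targets were higher and 3 lower, with a median log2 ratio of 0.60. Of 15 adaptors, kinases and subunits 1 was higher and 1 lower at that stage, where 3.1% of 11571 genes were higher and 4.47% lower.

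Other splits of epithelium set the members apart in other ways. Krt15 is a basal keratin that also served as one of the 13 markers for the lineage. At E14.5 the 82 Krt15+ cells had 0 of 17 Edar UMIs, a difference that was not detectable at this depth since the interval of the log2 ratio reached 0.79. Tnfrsf19 was at 9.42 CPM in them (3.79 to 19.4) and at 59.9 in the others, log2 -2.67 (-3.99 to -1.61), and was the only member past 2-fold, where 1.56% of 8153 genes were higher and 15.2% lower. At E16.5 the 97 Krt15+ cells were high in Eda, with 23.5 CPM (17 to 31.7, 43 UMIs) against 6.15 (4.94 to 7.58, 88 UMIs). Of these cells, 29.9% had an Eda UMI, against 5.71% of the others, at a median of 9297 against 6949 UMIs in all. After thinning, 6 of 95 Krt15+ cells (6.32%, 2.35 to 13.2) and 20 of 1214 others (1.65%, 1.01 to 2.53) held an Eda UMI. The intervals of these thinned shares overlapped. Edaradd was lower in Krt15+ cells, at 16.4 against 38.9 CPM, log2 -1.25 (-1.83 to -0.72) but 0.11 with counts thinned. Of 10284 genes, 5.53% were higher and 8.08% lower in Krt15+ cells. Tnfrsf19, low in Krt15+ cells at E14.5, was at 138 against 93.8 CPM in those at E16.5.

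The authors describe Sox2 as broad in the early dental epithelium and limited to stem cells once the incisor is fully formed. Sox2+ cells here are epithelial cells with a Sox2 UMI, and were not shown to be stem cells. At E14.5, Sox2+ cells (157) had 1 of the 17 Edar UMIs, Tnfrsf19 at 33.8 against 65.5 CPM and Nfkbia at 78.2 against 137 CPM. At E16.5, Sox2+ cells (116) had Tnfrsf19 at 57.5 against 105 CPM, Nfkbia at 48.1 against 91.3 CPM (log2 -0.92, -1.22 to -0.64) and Eda at 12.6 against 7.41 CPM (0.76, 0.11 to 1.38). Tnfrsf19 and Nfkbia were thus lower in Sox2+ cells at both stages, by less than 2-fold at full depth. In E16.5 cells with Fgf9, a growth factor of the inner dental epithelium, Eda was at 3.06 against 9.74 CPM and Edaradd at 59.5 against 29.0 CPM. In those with Wnt4 (765 cells) Tnfrsf19 was at 117 against 59.7 CPM (log2 0.96, 0.78 to 1.15).

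Mesenchymal cells were split in the same way. Tnfrsf19 was higher in cells with Lef1 at E11.5 (14 against 7.53 CPM), with Runx2 at E14.5 (9.48 against 4.87 CPM) and with Sp7 at E16.5 (29.6 against 16.2 CPM), the last 2 being transcription factors of bone-forming cells. Eda had 7 UMIs in Lef1+ and 37 in other mesenchymal cells at E14.5, log2 -1.51, and at E16.5 was at 2.33 CPM in Sp7+ cells against 5.52 in the others, log2 -1.25. These splits were named after their values had been seen, from 9, 10 and 9 mesenchymal splits from E11.5 to E16.5. Values of the same splits at the other stages are not given here. At E14.5 the Tnfrsf19 level in all mesenchyme, 7.37 CPM, was within the erythroid interval (3.87 to 17.7). Over all mesenchymal splits, 6 of 45 ratios at E11.5, 2 of 48 at E14.5 and 2 of 52 at E16.5 had intervals above 0, and 5, 7 and 8 below.

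Nfkbia is also a gene that cell isolation can induce, so 15 immediate early and stress genes were read beside it. They summed to 225, 1156 and 2037 CPM in mesenchyme from E11.5 to E16.5 and to 2287 and 1343 CPM in E14.5 and E16.5 epithelium, in the same order as Nfkbia within each tissue. From E11.5 to E14.5 in mesenchyme, 11.7% of all genes were higher by at least 2-fold and 12.7% lower. Of the 15 immediate early and stress genes, 14 were higher and none lower. Among cells thinned to 2000 UMIs, E16.5 mesenchymal cells with 0, 1 to 4 and 5 or more such UMIs had Nfkbia at 38.5, 77.8 and 126 CPM. E14.5 epithelial cells had 42.3, 77.7 and 181 CPM. In E14.5 mesenchyme the range was smaller, from 41.7 to 63.9 CPM. Their part in the Nfkbia differences between stages and tissues was not tested further.

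In Shh+ epithelial cells at E14.5 these genes summed to 3282 against 2026 CPM in the others. Within cells of 0 to 4 immediate early UMIs, Nfkbia was at 178 CPM (102 to 289, 45 cells) in Shh+ and 54.2 CPM (39.4 to 72.7, 406 cells) in the others, and within cells of 5 or more at 353 (254 to 479, 58 cells) and 126 CPM (92.5 to 169, 182 cells). Nfkbia was higher in Shh+ cells within both bins. Within bins this wide the cells can still differ in immediate early UMIs, and the part of these genes in the difference was not tested. At E16.5 the genes were lower in Shh+ cells, at 1032 against 1538 CPM, while Nfkbia was at 87.8 (67.9 to 112) against 57.4 CPM (45.5 to 71.6) in the bin of 0 to 4, with overlapping intervals, and at 246 (167 to 349) against 113 CPM (80.8 to 153) in the bin of 5 or more.

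**Figure D5:**
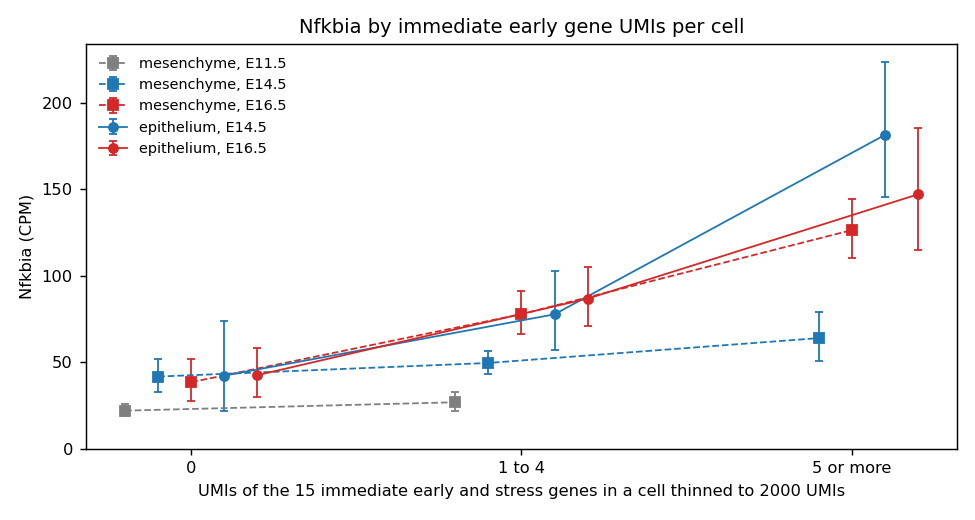
Nfkbia (CPM, linear axis from 0) in mesenchymal (squares, dashed) and epithelial (circles, solid) cells with 0, 1 to 4 and 5 or more UMIs of the 15 immediate early and stress genes, each cell thinned to 2000 UMIs, with exact 95% Poisson intervals. Values in epithelium at E14.5 run from 42.3 to 181 CPM and in mesenchyme at E14.5 from 41.7 to 63.9 CPM.

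The genes whose levels were most like each member were ranked by Pearson correlation of log2(CPM + 10) over the 14 groups of stage and lineage with at least 50 cells. These groups come from 3 count matrices, and the values are descriptive. Epithelium is among the groups only at E14.5 and E16.5, so a high correlation between genes high in epithelium rests largely on these groups. Edaradd was closest to Shh (0.975), Has3 and Ap1m2, and Tnfrsf19 to March9 (0.974), Fras1 and Ptprf. Nfkbia was closest to Tnip1 (0.947), another inhibitor of NF-kB signalling, and then to Ifngr2 and Txn2. Traf6 had no close neighbour, with Slc1a5 first at 0.876, then Ndufs6 and Kmt5c. Eda (Gm10544, Fbxo25, Cep170b, 0.931 for the first) and Edar (Trhde, Sox2, Tafa4, 0.986) stayed under 10 CPM in every group, so their rankings rest on small differences. Between members, Edaradd and Tnfrsf19 had 0.925, and Nfkbia and Tnfrsf19 -0.11.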

How the data were processed

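Cells were isolated from dissected mandibles or incisor buds with collagenase and sequenced as droplet-based 3' libraries. Per the labels and methods, the authors aligned reads and counted UMIs with Cell Ranger 4.0.0 against mm10. The deposited values are raw counts of UMIs per gene and barcode, in 1 matrix a stage. The authors' batch integration and clusters were not used here.

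Barcodes were kept from 700 genes up and to a mitochondrial share of 20% (8708, 8192 and 5719 barcodes before, summing to 47513863, 27765839 and 40024102 UMIs after). A lineage was called from at least 3 UMIs of at least 2 of its markers and 2 times the next lineage; erythroid cells needed 10% of UMIs in their markers. This rule was written with the data in view, and 177 and 312 epithelial cells at E14.5 and E16.5 lay near its limits. Doublets were kept, with the highest 5% of doublet scores left out as an alternative. UMIs were summed per group, scaled to CPM and compared as ratios. With 1 matrix a stage there was no replicate and no test. Genes named are the members, the 3 most like each, and list genes past 2-fold in a comparison of tissues or stages; others were named after their values were seen. The 6 genes and the lists were chosen with earlier results of these data known. Interval and calling code was tested on simulated data. Gene positions come from GENCODE vM21, another release than the one counted, and promoters from RefSeq. Python 3.11.15, numpy 2.4.6, scipy 1.17.1, scanpy 1.11.5 and leidenalg 0.10.2 were used. Alternatives covered the cell filter, thinning to 2000 UMIs, the lineage rule, Leiden clusters, weighting, size factors, doublets, the low-count filter and the Shh limit. Planned comparisons with E11.5 epithelium were not made.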

Additional observations from a re-analysis of the deposited data

Results flagged for a closer look

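Edaradd differed in opposite directions between E14.5 and E16.5 in the 2 tissues, with a log2 ratio of 0.46 in epithelium and -0.78 in mesenchyme, where its level did not exceed that in erythroid cells. Nfkbia had the reverse directions, with -0.43 in epithelium and 0.77 in mesenchyme. With 1 matrix a stage these differences between tissues were not tested.

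Barcodes left out by the cell filter also held UMIs of the 6 genes, 84 at E11.5 (in 2135 barcodes), 155 at E14.5 (in 2101) and 122 at E16.5 (in 1208). Nfkbia made up 36, 97 and 63 of them, and Edar 0, 4 and 2.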

How the results depend on the processing

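Under the alternatives, 262 log2 ratios between tissues, between stages and for Shh+ cells were recomputed. Of these, 238 stayed within their main interval and 21 left it. The other 3, whose main intervals lay above 0, changed sign, all with cells thinned to 2000 UMIs. Between epithelium and mesenchyme at E16.5, Edar went to -0.11 from 2.38 and Nfkbia to -0.051 from 0.14. Edaradd went to -0.16 from 1.04 between Shh+ and other epithelial cells at E14.5. Among the 21, Traf6 in this last comparison also changed sign with thinning (-0.87, from 0.23), where the main interval spanned 0. Outside this count, Edaradd in Krt15+ cells at E16.5 also changed sign with counts thinned (0.11, from -1.25). Thinning leaves fewer UMIs, and no other cause was tested. The count of members past 2-fold in mesenchyme from E11.5 to E14.5 was 0, but 1 with thinning or median-of-ratios size factors and 2 with the mean of per-cell CPM. In mesenchyme from E14.5 to E16.5 it was 1, but 2 without the highest doublet scores. In Shh+ cells at E14.5 it was 4, but 2 with thinning, whether cells were split before or after it; splitting first was added after seeing the data. The cause was not tested. Edar was the least stable, at 4.63 in epithelium over mesenchyme at E14.5 with cells of at least 200 genes (main 5.62), at -2.24 in epithelium from E14.5 to E16.5 with thinning (main -0.98) and at 3.71 in Shh+ cells at E14.5 with thinning (main 4.84). Size factors shifted the median of all genes by 0.12 in epithelium from E14.5 to E16.5, by -0.18 in mesenchyme from E11.5 to E14.5 and by 0.13 from E14.5 to E16.5. Without a filter on low counts, 18.2% to 30.3% of all genes passed 2-fold, against 5.81% to 18% with at least 10 CPM. Naming lineages per Leiden cluster gave 0, 900 and 1764 epithelial cells. No paired analysis was possible because barcodes of a stage are not tied to samples and no test was run. Alternatives for comparisons with E11.5 epithelium gave no values, since at most 16 such cells were found.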
